A study of Rattus norvegicus with 18 samples.

Results

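Alveolar type 1 cells are the wide, very thin epithelial cells that line most of the gas-exchange surface of the lung and lie against the capillary wall. They share the alveolus with the cuboidal type 2 cells, which make surfactant and can give rise to new type 1 cells after injury. The 7 genes described here are widely used markers of the type 1 cell. Aqp5 encodes a water channel, and Clic5 a chloride intracellular channel protein tied to the membrane cortex. Ager encodes RAGE, a receptor for S100 proteins and other ligands. Akap5 encodes an anchoring protein that holds protein kinase A near the membrane. Pdpn encodes podoplanin, a mucin-type glycoprotein of the apical membrane, and Cav1 encodes caveolin-1, the coat protein of caveolae. Hopx encodes a homeodomain-only protein without DNA binding of its own. Some of these are not restricted to that cell: Cav1 is also abundant in endothelium, Hopx in heart muscle and Pdpn in lymphatic endothelium and mesothelium.

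All probe sets that the platform annotation assigned to 1 of these symbols alone were taken, whatever their values. This gave all 7 genes, read by 9 of the 31256 probe sets on the arrays, with 1 for each of 6 genes and 3 for Cav1. All 9 were among the 19638 probe sets that passed the filter on dim signals, and all 9 lay above that filter on each of their 9 arrays. Every gene of the set was therefore measured in each lung RNA sample.

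The samples were lung RNA of male Sprague-Dawley rats exposed nose-only to sham conditions or to mainstream smoke of the 2R4F reference cigarette over 13 weeks, in daily sessions of 2 h on 5 days of the week. Smoke was set at 300 or 600 µg of total particulate matter per litre. Recovery before the lungs were removed lasted 2, 6 or 20 h. Each of the 9 conditions had 1 array of each of a pair of Affymetrix types, called A and B, so there were 18 arrays, and the labels used here give neither the age of the rats nor the number of animals behind an array. Exposures were therefore compared over the 3 recovery times (n = 3 arrays each), so p-values reflect how much these single arrays scatter, which may be partly technical.

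Some samples need care before the values are read. The 4 smoke samples at 20 h carry a further label that says sham, while their titles and source names give the smoke exposure, which was used. On type B, the 2 h sham array deviated from the mean pattern together with the 300 µg/l array at 2 h (Pearson r = 0.561 across tested probe sets), where the next highest of the other pairs of B arrays had r = 0.119. On type A the same pair had r = -0.165. Only 1 member probe set, Cav1 1393281_at, is on type B. Arrays were scaled by the authors to the same trimmed mean, so a signal is relative to the rest of the RNA. In whole lung, fewer cells of a type and less RNA per cell cannot be told apart.

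The proximal promoters of Aqp5, Akap5 and Pdpn are shown because their signals are the ones that lay lower in smoke-exposed lungs at all 3 recovery times. Each run is the 250 bases before the RefSeq start of the gene in GRCr8, 5′ to 3′ on the gene's strand. Aqp5 lies at chr7:132601278-132601527 (plus strand), Akap5 at chr6:100786919-100787168 (plus strand) and Pdpn at chr5:160918960-160919209 (minus strand). Capitals mark matches on either strand to 7 motifs: TEAD (GGAATG), NKX2-1 (CTCAAG), the TATA box (TATAAA), the CCAAT box (CCAAT), the GC box (GGGCGG), the antioxidant response element core (TGACNNNGC) and the xenobiotic response element core (GCGTG). No matches in these 3 runs overlap.
Aqp5: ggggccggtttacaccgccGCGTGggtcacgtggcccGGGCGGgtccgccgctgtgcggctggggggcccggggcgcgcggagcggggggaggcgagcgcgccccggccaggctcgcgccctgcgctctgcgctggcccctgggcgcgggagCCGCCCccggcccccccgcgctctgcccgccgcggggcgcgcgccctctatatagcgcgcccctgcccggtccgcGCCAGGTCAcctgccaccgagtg
Akap5: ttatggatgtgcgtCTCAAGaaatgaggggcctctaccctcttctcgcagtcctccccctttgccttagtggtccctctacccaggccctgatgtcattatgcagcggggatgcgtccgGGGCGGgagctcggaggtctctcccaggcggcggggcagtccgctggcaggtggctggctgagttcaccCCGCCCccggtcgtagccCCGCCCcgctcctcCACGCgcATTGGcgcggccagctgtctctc
Pdpn: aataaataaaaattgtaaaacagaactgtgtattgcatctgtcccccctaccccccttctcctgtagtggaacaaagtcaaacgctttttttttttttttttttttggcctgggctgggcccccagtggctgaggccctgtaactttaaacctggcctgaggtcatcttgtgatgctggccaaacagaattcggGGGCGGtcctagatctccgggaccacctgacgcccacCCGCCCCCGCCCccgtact

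The Aqp5 run was 83.2% G and C, the Akap5 run 66.8% and the Pdpn run 51.6%, where the median over all promoters was 51.2%. RefSeq listed 8 promoters for the 7 genes, a pair of them for Cav1. The GC box was in 5 of the 8 (Aqp5, Akap5, Pdpn, Clic5 and Cav1) and in 30.5% of all 33469 promoters. The xenobiotic core was in 4 (Aqp5, Akap5, Cav1 and Hopx) and in 25.9% of all. The antioxidant core was in 2 (Aqp5 and Clic5) and in 10.1% of all, and the CCAAT box in 2 (Akap5 and Ager) and in 34.0% of all. NKX2-1, named for the lung epithelial factor, was in 1 (Akap5) and in 13.3% of all. The TATA box was in 1 (Cav1) and in 12.9% of all. The TEAD letters were in 0 of the 8 and in 12.1% of all. A match is a description of letters, not a site of binding.

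After exposure to 600 µg/l, the signals of Aqp5, Akap5 and Pdpn stood below those of sham at every recovery time. Their estimated folds over the 3 times together were 0.70 to 0.87, but no member passed the test after adjustment over all probe sets. Clic5 was lower by less than the spread between its arrays allows to be called, and Ager and Hopx stood close to sham. The 3 Cav1 probe sets disagreed with each other. These changes are limma estimates on log2(signal + 50) with recovery time in the model, and p-values were adjusted by Benjamini-Hochberg over both array types.

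**Figure D1:**
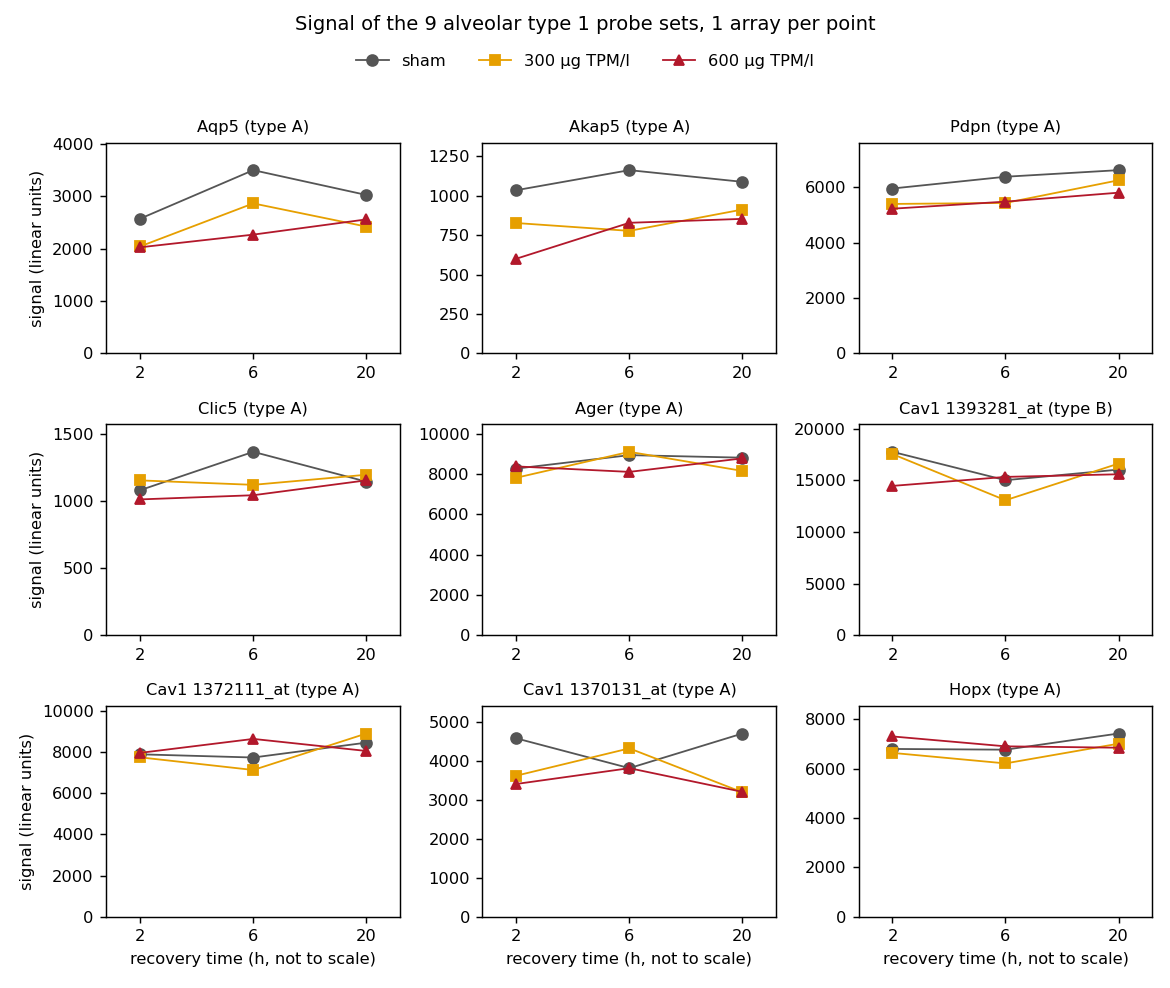
Signal (linear scale, arbitrary units) of each member probe set on every array, with points for the 3 recovery times joined by a line within each exposure. The 600 µg/l points of Aqp5, Akap5 and Pdpn all lie below the sham points, and those of Hopx and Ager overlap with them.

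Aqp5 had signals of 2027.8, 2269.8 and 2560.7 at 2, 6 and 20 h after 600 µg/l, against 2575.3, 3501.8 and 3027.7 in sham lungs. The groups did not overlap, although the highest smoke array and the lowest sham array lay close together. The means were 2286.1 ± 266.8 at 600 µg/l and 3034.9 ± 463.3 in sham (SD, n = 3 arrays each). The log2 change was -0.40 (SE 0.09, 95% interval -0.60 to -0.20), a fold of 0.76, with an unadjusted p of 0.00123 and an adjusted p of 0.113 in limma. The gap was -0.34 at 2 h, -0.62 at 6 h and -0.24 at 20 h on the log2 scale, so the sign was the same at 3 of 3 times.

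Akap5 had signals of 600.8, 828.6 and 853.5 after 600 µg/l, against 1035.4, 1162.6 and 1088.4 in sham lungs. Here the groups stood well apart, and the 2 h smoke array was the lowest of all 9. The means were 761.0 ± 139.3 at 600 µg/l and 1095.5 ± 63.9 in sham (SD, n = 3 arrays each). The log2 change was -0.51 (SE 0.11, 95% interval -0.76 to -0.27), a fold of 0.701, with an unadjusted p of 0.000843 and an adjusted p of 0.0929 in limma, the smallest of the 9. By time, the gap was -0.74 at 2 h, -0.47 at 6 h and -0.33 at 20 h.

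Pdpn had signals of 5221.4, 5476.5 and 5799.6 after 600 µg/l, against 5950.4, 6374.5 and 6612.7 in sham lungs. Every smoke array was below every sham array, by a smaller ratio than for Akap5 or Aqp5. The means were 5499.2 ± 289.8 at 600 µg/l and 6312.5 ± 335.5 in sham (SD, n = 3 arrays each). The log2 change was -0.20 (SE 0.06, 95% interval -0.33 to -0.07), a fold of 0.872, with an adjusted p of 0.247 in limma. Its gap hardly varied with time, at -0.19, -0.22 and -0.19 at 2, 6 and 20 h.

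Clic5 had signals of 1011.6, 1042.7 and 1153.7 after 600 µg/l, against 1080.5, 1366.2 and 1144.1 in sham lungs. The groups overlapped, the smoke array was the higher one at 20 h, and the sham array at 6 h stood above the other 8. The log2 change was -0.15 (95% interval -0.37 to 0.06, adjusted p = 0.649 in limma), and -0.037 without the 6 h sham condition.

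Ager had signals of 8381.3, 8109.7 and 8782.1 after 600 µg/l, against 8274.2, 8942.2 and 8816.0 in sham lungs. The smoke and sham arrays overlapped over most of their range. The log2 estimate was -0.04 (95% interval -0.19 to 0.10, adjusted p = 0.88 in limma). The interval bounds any change of this RAGE signal more tightly than it does for Clic5 or Akap5.

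Hopx had signals of 7301.8, 6901.0 and 6845.3 after 600 µg/l, against 6795.2, 6765.7 and 7419.9 in sham lungs. The 2 h smoke array was above both early sham arrays, while at 20 h the smoke array was the lower one. The log2 estimate was 0.01 (95% interval -0.13 to 0.14, adjusted p = 0.985 in limma).

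Caveolin-1 was read by 3 probe sets, which have different probes and were not set against each other in level. On type B, 1393281_at had 14474, 15348 and 15603 after 600 µg/l, against 17780, 15028 and 16056 in sham lungs, so the groups overlapped. Its log2 change was -0.10 (95% interval -0.34 to 0.14, adjusted p = 0.807 in limma), and -0.06 without the sham B array at 2 h that stood apart.
On type A, 1372111_at had 7952.6, 8629.1 and 8044.4 after 600 µg/l, against 7881.4, 7726.6 and 8447.7 in sham lungs, again with overlap. Its log2 change was 0.03 (95% interval -0.13 to 0.20, adjusted p = 0.923 in limma).
The other type A probe set, 1370131_at, had 3405.2, 3809.8 and 3202.6 after 600 µg/l, against 4574.1, 3810.4 and 4698.4 in sham lungs. These groups were separated only by the nearly equal values at 6 h. Its log2 change was -0.32 (95% interval -0.58 to -0.06), with an unadjusted p of 0.0207 and an adjusted p of 0.372 in limma. It was -0.51 without the 6 h sham condition and -0.19 without the 20 h sham condition. Across the 9 arrays the 3 Cav1 probe sets were poorly related, with r of 0.451 between 1393281_at and 1372111_at, -0.011 between 1393281_at and 1370131_at and -0.296 between the type A pair. Without the 2 h sham condition, whose B array stood apart, the first of these was 0.581 and the next -0.316, so no single caveolin-1 change can be stated from these arrays.

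At 600 µg/l against sham, 0 of the 9 member probe sets passed the threshold in limma, where 101 of all probe sets (0.514%) did. At an unadjusted p under 0.05 there were 4 (Aqp5, Akap5, Pdpn and Cav1 1370131_at), all lower in smoke-exposed lungs, where 5.09% of all tested probe sets were lower at that p. The same 4 had all 600 µg/l arrays below all sham arrays, a pattern held by 7.42% of all tested probe sets. In sign, 7 of 9 were below 0. Over the 7 genes, each by its brightest probe set, the median log2 change was -0.15, while over all 10165 genes it was -0.004 with 51.1% below 0.

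**Figure D2:**
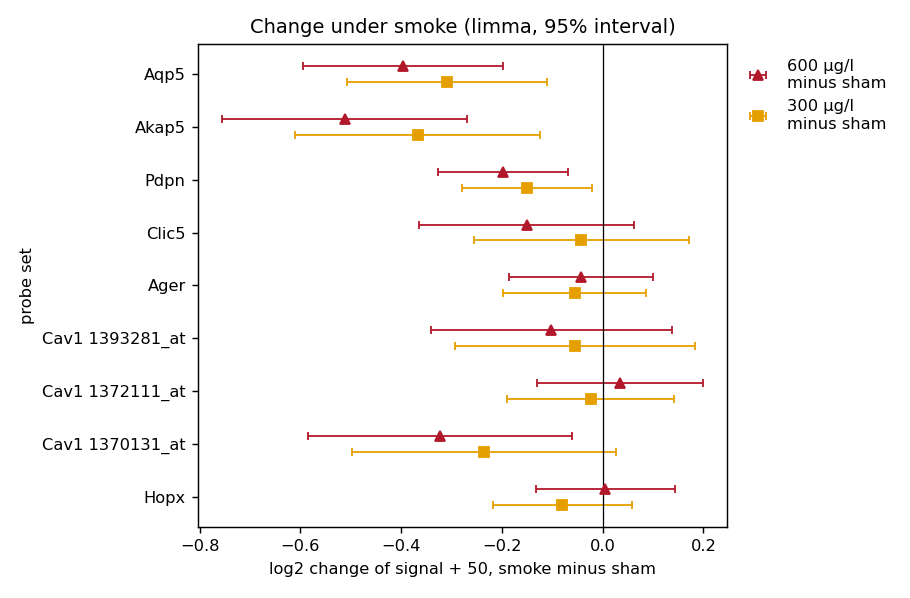
Log2 change of signal + 50 with its 95% interval for each member probe set (limma), at 600 and 300 µg/l against sham. The 600 µg/l intervals of Aqp5, Akap5, Pdpn and Cav1 1370131_at lie below 0, and those of Ager and Hopx span it with a width of under 0.3.

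At 300 µg/l the same 3 genes stood below sham at each recovery time, with estimates slightly nearer 0, and again none passed the test. Aqp5 had 2045.1, 2866.2 and 2423.0 at 2, 6 and 20 h, a mean of 2444.8 ± 411.0 (SD, n = 3 arrays), and overlapped with sham. Its log2 change was -0.31 (adjusted p = 0.63 in limma), with gaps of -0.33, -0.28 and -0.32 at 2, 6 and 20 h. Akap5 had 827.1, 777.4 and 912.8, a mean of 839.1 ± 68.5 (SD, n = 3 arrays). It was the 1 member whose 300 µg/l arrays all lay below all sham arrays, as 4.32% of all tested probe sets did. The log2 change of Akap5 was -0.37 (adjusted p = 0.664 in limma), and the largest gap, -0.55, was at 6 h and not at 2 h as after 600 µg/l. Pdpn had 5393.2, 5429.8 and 6247.1, overlapping with sham, and a log2 change of -0.15 (adjusted p = 0.811 in limma).

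Of the other members at 300 µg/l, Cav1 1370131_at had the largest estimated difference from sham. Clic5 had 1153.2, 1120.2 and 1195.3 (log2 change -0.04) and Ager 7818.8, 9106.4 and 8157.3 (-0.06), both inside or across the sham range. Hopx had 6635.6, 6209.8 and 7008.4, lower than sham at 3 of 3 times, with a log2 change of -0.08 (adjusted p = 0.997 in limma). Cav1 1393281_at had 17562, 13083 and 16639, 1372111_at 7734.7, 7120.8 and 8890.7, and 1370131_at 3617.6, 4317.9 and 3192.1, and their log2 changes were -0.06, -0.02 and -0.24. Without the sham B array that stood apart, that of 1393281_at was -0.02. All 9 probe sets were below 0, the brightest ones with a median of -0.08, where 50.4% of all genes were below 0 with a median of -0.001. In limma 0 of 9 passed the threshold and 3 had an unadjusted p under 0.05 (Aqp5, Akap5 and Pdpn), where 9 of all probe sets (0.0458%) passed and 2.66% were lower at such a p. Since both smoke groups were set against the same sham arrays, their like signs are not independent of each other.

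Between the smoke levels no member separated. At 600 against 300 µg/l the log2 difference was -0.09 (95% interval -0.29 to 0.11) for Aqp5, -0.15 (95% interval -0.39 to 0.10) for Akap5, -0.05 for Pdpn and 0.09 (95% interval -0.05 to 0.22) for Hopx. The arrays of both levels overlapped for all 9 probe sets, and the intervals leave room for a dose difference of either sign. In limma 0 of 9 passed or had an unadjusted p under 0.05, where 4 of all probe sets (0.0204%) passed and 5.05% had such a p. In the moderated F test over the 3 exposures, 0 of 9 passed and 3 had an unadjusted p under 0.05, where 42 of all probe sets (0.214%) passed and 7.75% had such a p.

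Recovery time was the second axis of the design. Aqp5, Akap5, Pdpn, Clic5 and Ager were dimmest on average at 2 h, and no member passed the test between times. Aqp5 averaged 2216.1 ± 311.2 at 2 h, 2879.3 ± 616.1 at 6 h and 2670.5 ± 316.9 at 20 h (SD, n = 3 arrays each). Within every exposure the 2 h array was the lowest of the 3 Aqp5 values. Its log2 change was 0.36 at 6 h against 2 h (SE 0.09, unadjusted p = 0.00246, adjusted p = 0.224 in limma) and 0.27 at 20 h against 2 h (adjusted p = 0.302).
Pdpn averaged 5521.7 ± 381.1 at 2 h, 5760.3 ± 532.5 at 6 h and 6219.8 ± 407.2 at 20 h (SD, n = 3 arrays each). It was highest at 20 h within every exposure, with a log2 change of 0.17 at 20 h against 2 h (adjusted p = 0.307 in limma). Akap5 averaged 821.1, 922.9 and 951.6 at 2, 6 and 20 h, with a log2 change of 0.23 at 20 h against 2 h (adjusted p = 0.47 in limma). Clic5 averaged 1081.8, 1176.4 and 1164.4 at 2, 6 and 20 h, and Ager 8158.1, 8719.4 and 8585.1. Cav1 1372111_at was the 1 probe set whose 20 h arrays all lay above all 2 h arrays, as 8.58% of all tested probe sets did.

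**Figure D3:**
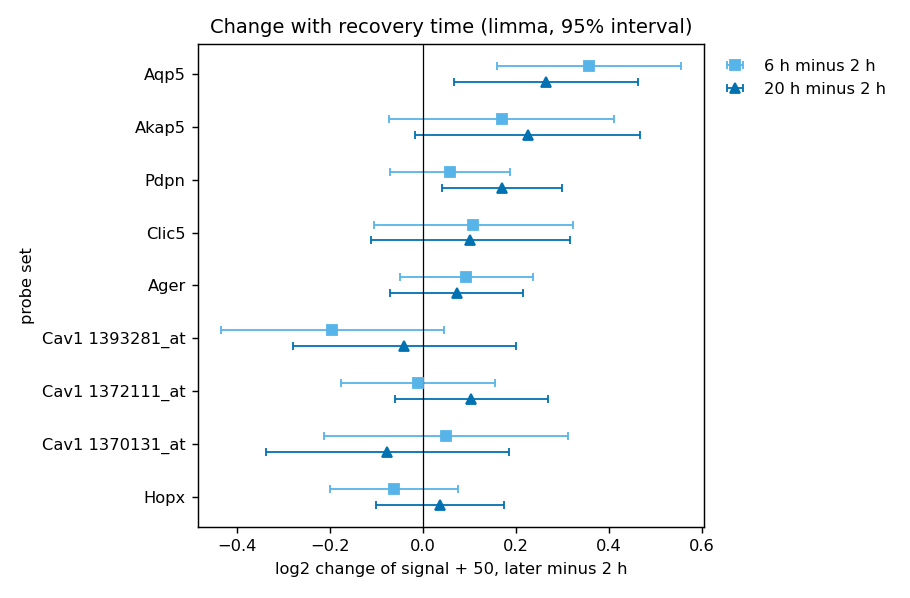
Log2 change of signal + 50 with its 95% interval for each member probe set, 6 and 20 h against 2 h over the 3 exposures (limma). Both intervals of Aqp5 and the 20 h interval of Pdpn lie above 0 before adjustment, and the other intervals include 0.

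For 6 h against 2 h, 0 of 9 probe sets passed in limma and 1 (Aqp5) had an unadjusted p under 0.05, where 3 of all probe sets (0.0153%) passed and 10.8% had such a p, close to the members' share. For 20 h against 2 h, 0 passed and 2 (Aqp5 and Pdpn) had an unadjusted p under 0.05, where 10 of all (0.0509%) passed and 11.4% had such a p. For 20 h against 6 h, 0 members passed and 0 had an unadjusted p under 0.05, where 0 of all (0%) passed and 4.49% (881) had such a p.

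Whether the smoke effect itself changed with time was tested with both smoke levels pooled. For 6 h against 2 h, 0 members passed in limma and 1 had an unadjusted p under 0.05, where 0 of all probe sets (0%) passed and 6.27% (1231) had such a p. That member was Cav1 1370131_at, with a difference of the smoke effects of 0.47 (SE 0.16, adjusted p = 0.723). For 20 h against 2 h, 0 members passed and 0 had an unadjusted p under 0.05, where 2 of all (0.0102%) passed and 3.45% had such a p. The residual spread of this model lies between the 300 and 600 µg/l arrays, so it holds no variation of sham arrays.

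Among themselves some pairs of members had like patterns over the arrays and others did not. Over the 9 type A arrays, which share the exposures and times, log2 signals of Akap5 and Pdpn had r = 0.875, Aqp5 and Ager 0.795, Aqp5 and Akap5 0.756, Aqp5 and Pdpn 0.726, and Aqp5 and Clic5 0.702. Once exposure and time means had been removed, r was 0.453 for Akap5 and Pdpn, 0.889 for Aqp5 and Ager, -0.326 for Aqp5 and Akap5, -0.359 for Aqp5 and Pdpn and 0.421 for Aqp5 and Clic5. Clic5 had r = 0.692 with Akap5, 0.647 with Pdpn and 0.356 with Ager, and without those means 0.435, 0.537 and 0.008. Ager had 0.242 with Akap5 and 0.334 with Pdpn, and without those means -0.679 and -0.639. Hopx had r of -0.20 to 0.35 with the other type A members, and -0.57 to 0.46 without those means. Values without the means rest on 4 residual degrees of freedom. Over all 9 arrays the coefficient of variation was 19.3% for Akap5 and 18.5% for Aqp5, against 8.5% for Pdpn and 5.2% for Ager.

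Across the other genes of the same array type (8402 on A, 5400 on B), the most alike patterns over the 9 arrays were found by Pearson r, where a search this wide gives high values to some genes in any case. Aqp5 was most like Sema3c (r = 0.963), a secreted semaphorin, Car4 (0.963), a membrane carbonic anhydrase, and Vps28 (0.953), an endosomal sorting subunit. Car4 had 1055.3, 1128.7 and 1310.7 after 600 µg/l, against 1337.1, 1579.2 and 1391.6 in sham lungs. Akap5 was most like Hif1a (0.962), a hypoxia-regulated transcription factor, Maged1 (0.94) and Pkia (0.939), an inhibitor of protein kinase A. Pkia had 232.1, 283.2 and 278.2 after 600 µg/l, against 379.3, 375.4 and 395.7 in sham lungs. Car4 and Pkia were picked for their likeness over these same arrays. That they stood below sham is therefore partly built into the search and is no further result. Pdpn was most like Myo1d (0.954), an unconventional myosin, Tmem47 (0.944) and Ptprm (0.94), a receptor-type phosphatase. Clic5 was most like Rarb (0.961), a retinoic acid receptor, Il2rb (0.948) and Wdr33 (0.947). Ager was most like Phpt1 (0.966), Phb2 (0.935) and Tmod1 (0.932). Cav1 1393281_at was most like Pals1 (0.954), Pan2 (0.938) and Pdzd8 (0.918), with r of 0.94, 0.92 and 0.899 without the sham B array that stood apart. The 300 µg/l B array at 2 h, which deviated together with it, was kept. These values therefore cannot show whether the likeness comes from the deviation that both arrays share. Hopx was most like Gstm7 (0.927), Kiaa1191 (0.884) and Ugdh (0.883).

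The neighbouring genes of each member's function were described from lists at 600 µg/l against sham, where 0.62% of all genes passed as higher and 0.128% as lower. Of 26 further type 1 cell markers, 22 were measured and 0 passed in either direction, with a median log2 change of -0.06 and 13 below 0. Col4a4, a basement membrane collagen chain, had 116, 100.2 and 129.7 after 600 µg/l, against 209.2, 195.2 and 188.2 in sham lungs. It reached the filter on dim signals (183.8 on type A) in the 3 sham arrays alone, so it was tested only because it is high there, and its log2 change of -0.59 (adjusted p = 0.113 in limma) is given as a description. The median of the other 21 was -0.06. Agrn, a basement membrane proteoglycan, had -0.28 (adjusted p = 0.206), Tspan8 -0.24 (adjusted p = 0.212) and Timp3 0.21 (adjusted p = 0.477).

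Around caveolin-1, 8 of 12 caveolar coat and partner genes were measured, 0 passed, and the median was -0.07. Cavin2, a coat component, had a log2 change of -0.14, Cav2, the partner of caveolin-1, -0.14, Ehd2, an ATPase at the caveolar neck, -0.13, and Cavin3 -0.09. Of 10 measured podoplanin and membrane-cortex partners 0 passed (median -0.04), with Cd44 at 0.27 and radixin (Rdx) at -0.21. Of 16 measured A-kinase anchoring partners 0 passed (median -0.03). The anchoring protein Akap12 had -0.38 (adjusted p = 0.125 in limma), and Adrb1, the beta-1 adrenergic receptor, -0.46 (adjusted p = 0.266).

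Among 12 measured genes of water, sodium and chloride transport, 1 rose and 0 fell (median 0.08). The gene that rose was Atp1b1, the beta subunit of the sodium pump, with 5303.4, 3536.5 and 4078.5 after 600 µg/l, against 2887.3, 2746.2 and 2747.4 in sham lungs. Every smoke array was above every sham array, and the log2 change was 0.60 (SE 0.09, adjusted p = 0.0212 in limma). Its direction was opposite to that of Aqp5, while Aqp4, a further water channel, had 0.27, Cftr 0.64 (adjusted p = 0.254) and Clic3 -0.28.

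Among 10 measured ligands and partners of RAGE, 1 rose and 0 fell (median 0.10). S100a9, a calcium-binding RAGE ligand of neutrophils and monocytes, had 2976.4, 6636.4 and 5161.2 after 600 µg/l, against 967.8, 694.7 and 1033.4 in sham lungs. The log2 change was 2.34 (SE 0.22, adjusted p = 0.00155 in limma), beside a receptor signal, Ager, whose change was -0.04. S100a8, its usual partner, had 0.77 (adjusted p = 0.4). Of 14 measured type 1 cell regulators and YAP targets 0 passed (median -0.03), with Ccn2, a YAP target, at 0.49 (adjusted p = 0.0838 in limma) and Fgfr2 at 0.44 (adjusted p = 0.122).

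**Figure D4:**
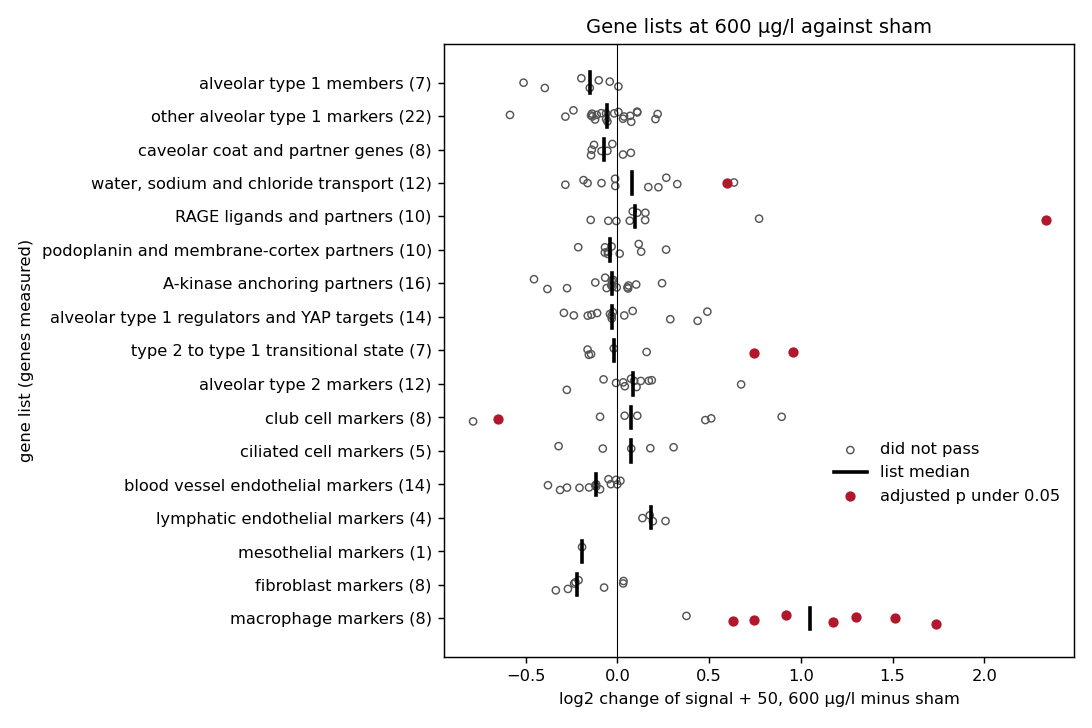
Log2 change of signal + 50 at 600 µg/l against sham for the measured genes of each list, 1 point a gene, with the list median as a bar. The macrophage points lie mostly above those of the other lists, and the medians of the type 1 cell lists lie slightly below 0.

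Of 7 measured genes of the transitional state between type 2 and type 1 cells, 2 rose and 0 fell (median -0.02). They were Lgals3, or galectin-3, with 0.74 (adjusted p = 0.00336 in limma), and Plaur, the urokinase receptor, with 0.96 (adjusted p = 0.0321). Plaur reached the filter on dim signals in 5 smoke arrays and 0 sham arrays, so it was tested only through the groups where it is high, and without it 1 of 6 rose (median -0.08). Both are also known in macrophages, and Lgals3 is on the macrophage list too. The keratins Krt8 (-0.16) and Krt19 (-0.16) did not pass. Which cells the signals of these genes came from cannot be told apart in whole lung and was not tested. Of 12 measured type 2 cell markers 0 passed (median 0.08). The surfactant protein genes Sftpc, Sftpb, Sftpa1 and Sftpd had log2 changes of 0.04, -0.01, 0.07 and 0.19. Scd, a fatty acid desaturase, had 0.67 (adjusted p = 0.283), Etv5, a transcription factor, -0.28 and Napsa, a surfactant-processing protease, 0.17.

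Markers of other lung cells were set beside these results. On type A the summed macrophage signal was 30063 to 35369 after 600 µg/l and 25584 to 28594 after 300 µg/l, against 15439 to 17727 in sham lungs, and 7 of 8 macrophage markers rose at 600 µg/l (median 1.05). Without Ctsk, which reached the filter in no sham array, 6 of 7 rose (median 0.92). The summed signal of the 6 type A members was 24545 to 25995 after 600 µg/l and 23873 to 25944 after 300 µg/l, against 25711 to 28113 in sham lungs. For blood vessel endothelium the sums were 26807 to 28899 and 27378 to 28440, against 28355 to 31030, with 0 of 14 passing, 13 below 0 and a median of -0.12. For fibroblasts the sums were 15184 to 16527 and 14787 to 16984, against 18022 to 18977, with 0 of 8 passing and a median of -0.22. For ciliated cells the type A sums were 3274.2 to 3759.1 and 3607 to 3966.2, against 3975.9 to 4415.7. Most of this sum was 1 gene, Tppp3, with means of 3020.7 after 600 µg/l and 3779.0 in sham lungs. Its log2 change was -0.32 (adjusted p = 0.0901 in limma), while the other type A ciliated markers, Foxj1 and Tekt1, had 0.31 and 0.18. The type A sums of the members and of the blood vessel endothelial markers overlapped with sham, as did those of type 2 and club cell markers. Of the remaining lists, 0 of 5 ciliated cell markers (median 0.08) and 0 of 4 lymphatic markers (median 0.19) passed, the 1 measured mesothelial marker, Msln, had -0.19, and 1 of 8 club cell markers passed. That one was Cyp4b1, with -0.65 (adjusted p = 0.00203 in limma). The lymphatic marker Prox1 and the club cell marker Gsta3 reached the filter in no sham array, so they were tested only through the groups where they are high. Without Prox1 the median of the other 3 lymphatic markers was 0.18, and without Gsta3 there were 7 club cell markers, Cyp4b1 among them. Every measured marker of these lists had a signal above 0 on each array, which does not show that it reached the filter there. The part of these cell types in the values of the 7 genes was not tested.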

How the data were processed

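Biotin-labelled cRNA of lung was read on 2 Affymetrix array types (9 arrays of each), per the labels. The files hold the intensity deposited for each probe set, linear and made by the authors with MAS5 per the submitters' processing notes, and their scaling was kept (mean without the highest and lowest 2% of 500.09 to 500.10 on every array). Samples were grouped by title. Signals were analysed as log2(signal + 50), and folds are on that scale. A probe set entered the tests if 3 or more of its 9 arrays reached the 40th percentile of signals, which was 183.8 for A and 238.7 for B, without the 57 control probe sets of each type. Probe sets shared by both types (100) were tested on A only.

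Each type was fitted on its own in R 4.3.3 by limma 3.58.1, using lmFit and a trended eBayes, with two-sided tests, Benjamini-Hochberg adjustment over both types and a threshold of 0.05. The first held exposure and recovery time (4 residual degrees of freedom), the second smoke, time and their interaction (3). Scripts were tested on simulated data. Symbols came from the platform annotation, updated through Entrez identifiers, and a gene in a list was read by its brightest probe set. Promoters came from RefSeq GRCr8.

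The members, lists and tests were chosen with earlier results of these data known. The text names every member probe set and the 3 genes most like each member. For most lists it names up to 4 genes by p at 600 µg/l together with those that passed. The blood vessel and fibroblast genes were described as lists only, and most macrophage genes that passed are not named. Further list genes were named after their values were seen. Alternatives covered normalization, pseudocount, filter, trend, adjustment, the 20 h samples, the B array that stood apart and each condition left out.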

Additional observations from a re-analysis of the deposited data

Results flagged for a closer look

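For Clic5 both smoke arrays lay below sham at 6 h and above it at 20 h, so that the mean smoke effect on the log2 scale was 0.036 at 20 h against -0.325 at 6 h. The sham array at 6 h (1366.2) was the highest of the 9 Clic5 values. The difference of 0.36, from an interaction contrast chosen after seeing the data, did not pass in limma (unadjusted p = 0.0724, adjusted p = 0.8). In the same contrast Cav1 1370131_at had a larger difference of -0.64 (unadjusted p = 0.0028, adjusted p = 0.508), which did not pass either.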

How the results depend on the processing

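No member passed under any of the 20 alternatives, and Aqp5, Akap5, Pdpn and Cav1 1370131_at stayed below 0 at 600 µg/l against sham in all of them. Aqp5 ranged from -0.48 to -0.28 (adjusted p 0.0694 to 0.337), Akap5 from -0.60 to -0.38 (0.0548 to 0.302), Pdpn from -0.27 to -0.17 (0.124 to 0.579) and Cav1 1370131_at from -0.51 to -0.19 (0.0656 to 0.745). Values near 0 changed sign, and the cause was not tested. Quantile normalization gave Cav1 1372111_at -0.062 and Hopx -0.094 at 600 µg/l against sham, and Ager -0.03 at 600 against 300 µg/l, which was -0.033 without 20 h. Leaving out each condition in turn gave, at 600 µg/l against sham, Ager -0.079 to 0.027, Cav1 1393281_at -0.205 to 0.004, Cav1 1372111_at -0.052 to 0.11 and Hopx -0.032 to 0.065. At 300 µg/l against sham it gave Clic5 -0.108 to 0.073, Cav1 1393281_at -0.122 to 0.05 and Cav1 1372111_at -0.098 to 0.054. At 600 against 300 µg/l it gave Aqp5 -0.169 to 0.027, Ager -0.024 to 0.082, Cav1 1393281_at -0.152 to 0.059, Cav1 1372111_at -0.028 to 0.133 and Cav1 1370131_at -0.188 to 0.04. At 6 h against 2 h it gave Clic5 -0.005 to 0.17, Cav1 1372111_at -0.096 to 0.068 and Cav1 1370131_at -0.076 to 0.234, and at 20 h against 2 h Cav1 1393281_at -0.145 to 0.028 and Cav1 1370131_at -0.21 to 0.026. Over all probe sets, the 101 calls at 600 µg/l became 35 with no filter, 54 without the trend, 55 without 20 h, 57 with only the 2 exposures compared, 143 with adjustment within each array type, 124 without the sham B array at 2 h and 43 to 95 with a condition left out. A difference of smoke effects could not be estimated on an array type that lacked the sham array of either time. Recovery time was already a term of the model, and the labels give no replicate numbers for a further block.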
